A study of Mus musculus with 32 samples.

Results

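The mRNAs of 8 genes, grouped here as kinases induced by neuronal activity together with the pseudokinase gene Trib1, were measured in soma and neurites of cultured mouse hippocampal neurons. The genes are the 3 salt-inducible kinases Sik1, Sik2 and Sik3, the polo-like kinases Plk2 and Plk3, the serum- and glucocorticoid-regulated kinase Sgk1, the serine/threonine kinase Pim1 and the pseudokinase Trib1. The genes were taken by symbol, and all 8 were found among the 55573 genes of the count table. All 8 passed the filter of a mean of at least 10 counts in every comparison below.

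Salt-inducible kinases belong to the AMPK-related family and are switched on by the kinase LKB1. They phosphorylate the CRTC coactivators of the transcription factor CREB and the class IIa histone deacetylases, which holds both in the cytoplasm, and Sik1 is itself a CREB target, so it closes a feedback loop. Plk2 is an immediate early gene of neurons whose kinase takes part in weakening synapses after prolonged activity, and Plk3 is its close relative. Sgk1 works downstream of PI3 kinase and restrains the FOXO factors, Pim1 is active as soon as it is made and so is set by the amount of its mRNA and protein, and Trib1 has a kinase fold with little or no catalytic activity and brings C/EBP transcription factors to the ubiquitin ligase COP1.

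Cultures were prepared from newborn C57BL/6 mice (WT) or Mettl3Flox/Flox mice, with both sexes pooled, and grew on a porous membrane whose upper side holds the somata and whose lower side holds dendrites and axons. Every culture of either genotype received AAV-hSyn-Cre-P2A-dTomato at DIV7 (50000 viral genomes per cell), so the WT neurons carry Cre too, and the synapsin promoter limits deletion of the m6A writer Mettl3 to neurons and leaves it in glia. Every culture was then silenced at DIV14 for 16 h with 1 uM TTX and 50 uM D-AP5, and at DIV15 the cultures either received 55 mM KCl for 2 h (KCl) or did not (Ctrl). The 8 groups of genotype, compartment and treatment each held 2 RNA-seq libraries, and the DART-seq tables for m6A pool 16 further libraries.

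On the GRCm38 assembly Sik1 (ENSMUSG00000024042) lies at chr17:31844250-31855804 on the minus strand, Sik2 (ENSMUSG00000037112) at chr9:50892801-51009073 on the minus strand and Sik3 (ENSMUSG00000034135) at chr9:46012820-46224194 on the plus strand. Plk2 (ENSMUSG00000021701) lies at chr13:110395046-110400844 on the plus strand and Plk3 (ENSMUSG00000028680) at chr4:117128655-117133963 on the minus strand. Sgk1 (ENSMUSG00000019970) lies at chr10:21882184-21999903, Pim1 (ENSMUSG00000024014) at chr17:29490753-29496112 and Trib1 (ENSMUSG00000032501) at chr15:59648350-59657099, all on the plus strand. Exons of another gene cover 15.0% of the exon bases of Sik2 (Ppp2r1b), 14.5% of those of Pim1 (Gm26885) and 3.32% of those of Plk3 (Tctex1d4). The counting used neither strand nor the option that assigns a read to several genes, so reads over those bases cannot be told apart by gene and are left out of both counts.

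DART-seq marks m6A by a YTH domain fused to the cytidine deaminase APOBEC1, which turns the C after a methylated A into U. The deposited list, called by the authors, held 21 edited sites in 7 of the 8 RNAs and none in Sik2. Sik1 held 8 sites, 4 in the 3′UTR and 4 in coding sequence, and Trib1 held 4, 2 in each. Plk3 had 2 coding sites, Sgk1 had 2 in the 3′UTR, Pim1 had 1 of each kind and Sik3 had 1 coding site. Plk2 had 1 coding site and 1 site in an intron of the coding transcript. The most edited site of each RNA is printed below as 21 bases of the transcribed strand (GRCm38), with the second 3′UTR sites of Sgk1 and Trib1, the RNAs whose scores differed most between compartments. Capitals mark the purine, A and C that the study required at each site, with the edited C last.
Sik1, coding, chr17:31848111-31848131, minus: ccagctccGACagctgcctcc
Sik3, coding, chr9:46198230-46198250, plus: ctaacatgAACttcacgcaca
Plk2, intron, chr13:110398510-110398530, plus: tctcggatAACtagcatctgt
Plk3, coding, chr4:117131424-117131444, minus: caccccccAACcctgcgagga
Sgk1, 3′UTR, chr10:21999762-21999782, plus: tatttgtaAACcatcatttta
Sgk1, 3′UTR, chr10:21999629-21999649, plus: acctataaAACgggcattatt
Pim1, 3′UTR, chr17:29496088-29496108, plus: tgaataaaAACcttttgtctt
Trib1, 3′UTR, chr15:59654715-59654735, plus: acctcagaAACctcataattc
Trib1, 3′UTR, chr15:59654907-59654927, plus: tttcaatgAACcatcatgact

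The Sik3 site was edited in 18.8% of reads (authors' mean), a higher value than 98.7% of the 18231 sites in the list. Sgk1 followed with 10.4% at chr10 position 21999772, above 91.5% of all sites, and these were the 2 sites at 10% or more. The remaining sites lay between 1.48% (Trib1, coding) and 7.32% (Plk2, intron). The median over the 21 sites was 3.70%, against 3.54% over all sites. Sites were called by the authors against the Mettl3 KO libraries, so a lower value in KO is part of how they were chosen.

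Since 6 of the 8 genes rose with KCl in WT soma (see the values by library further on), the promoters of the 8 were searched on both strands. The motifs were the cAMP response element (CRE) TGACGTCA, its shorter core TGACG and the E-box CACGTG. Counts of the core include cores that lie within a full CRE. RefSeq windows (GRCm38.p6) of 250 bases before to 50 bases after the start were found for 6 genes. Sik1 and Trib1 were not matched, Sgk1 had 6 windows and Pim1 had 2. The full CRE was in Plk2, 62 bases before its start, and in 1.79% of all 32851 windows. The core TGACG was in 5 of the 6 genes (Plk2, Plk3, Sik2, Sik3 and Sgk1) and in 20.8% of all windows, and the E-box was in Sik3, Sgk1 and Pim1 and in 7.15% of all windows. The Plk2 element and cores of Plk3, Sik2, Sik3 and Sgk1 are printed with the motif in capitals to show how far the matches go beyond the shared letters.
Plk2, chr13:110394974-110394997, plus: gctcgccgTGACGTCAcgaggccc
Plk3, chr4:117134083-117134103, minus: ctttcaggTGACGtaaggcgg
Plk3, chr4:117134014-117134034, minus: gctcgagaTGACGaaacaccg
Sik2, chr9:51009062-51009082, minus: cggcccccTGACGtcggctca
Sik3, chr9:46012755-46012775, plus: tcccggagTGACGtctgtcgg
Sgk1, chr10:21978428-21978448, plus: taagtcagTGACGatcttctt
A gene with more windows has more chances to hold a motif, and a match is a string of letters only.

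Levels are given as CPM, the read count scaled to the size of its library with edgeR's TMM factors. Libraries held 33789183 to 71394235 counts in genes (median 52414311). Counts of the 8 genes ran from 26 (Pim1 in a silenced Mettl3 KO soma library) to 73263 (Plk2). Both libraries of the KCl-treated Mettl3 KO replicate 1 stood apart. Their summed neuronal markers were 1211 CPM in soma and 720 CPM in neurites, against 2793 to 4997 CPM in the other 14 libraries. Oligodendrocyte lineage markers were 3553 and 7039 CPM against 57.9 to 203 CPM, microglial markers 250.5 and 177 CPM against 11 to 39.8 CPM, astrocyte markers 9545 and 18474 CPM against 1198 to 7142 CPM, and markers of fibroblasts and vessels 134 and 717 CPM against 13.2 to 81.9 CPM. Every marker had counts in every library, so none was at 0. In these bulk libraries fewer neurons and less RNA per neuron cannot be told apart.

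**Figure D1:**
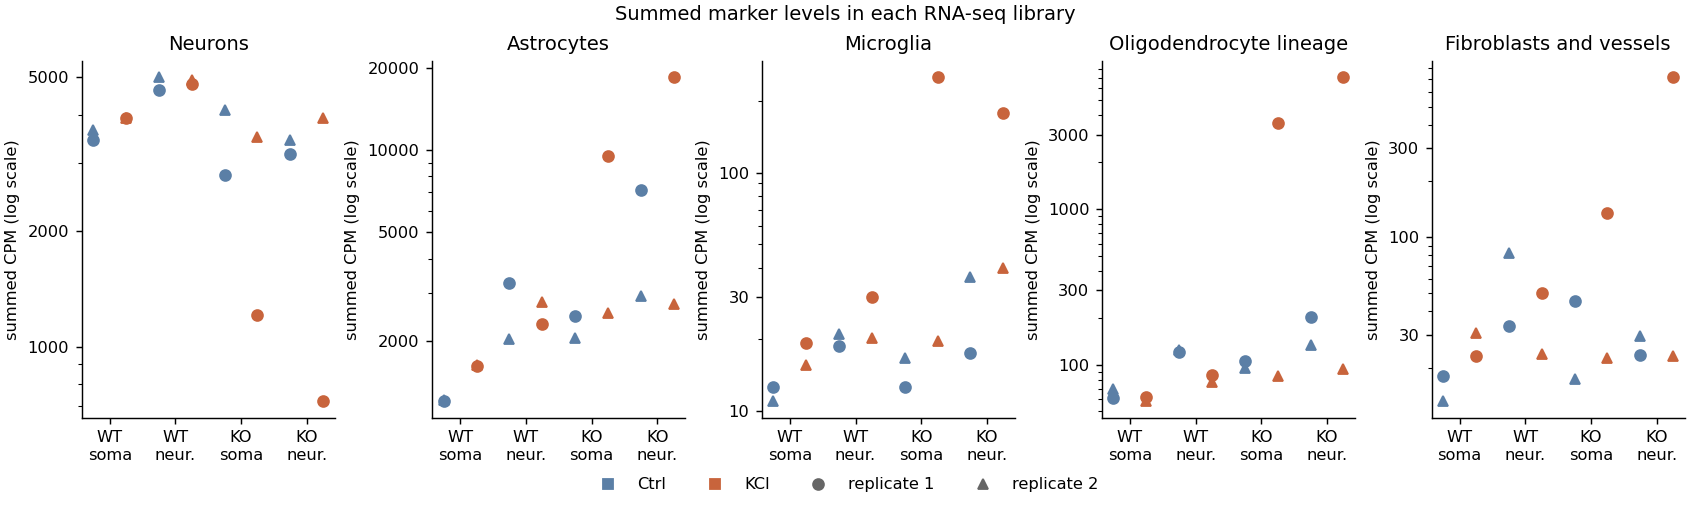
Summed CPM of the marker genes of 5 cell classes (log y axes) in each of the 16 RNA-seq libraries, by genotype and compartment, with Ctrl in blue, KCl in orange, circles for replicate 1 and triangles for replicate 2. The KCl-treated Mettl3 KO replicate 1 has the lowest neuronal sum (1211 CPM in soma, 720 CPM in neurites) and the highest sums of the 4 other classes.

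Mettl3 itself checks the knockout. Its level was 17.3 and 16.7 CPM in WT Ctrl soma and 8.69 and 11.6 CPM in Mettl3 KO Ctrl soma, and with KCl it was 15.2 and 13.2 CPM in WT against 8.93 and 6.11 CPM in KO. Every KO soma library was below every WT soma library. The deletion removes a floxed exon and not the whole gene, and glia keep the gene, so the whole-gene count does not measure how complete the deletion was.

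The first comparison asks which of these mRNAs depolarization raises in WT soma. Of the 8 genes, 6 rose at least 2-fold at an adjusted p of at most 0.05 (edgeR's quasi-likelihood test, as in all that follows), where 3.74% of 24060 genes rose by the same rule. These were Pim1, Trib1, Sik1, Sik2, Plk2 and Sgk1. The median log2 fold change over the 8 was 2.19, against 0.00866 over all genes tested. The 8 were grouped as activity-induced genes with earlier results of these data known. Their contrast with all genes is therefore no separate evidence that such genes respond. In both WT compartments each KCl library of each of the 8 genes was above each Ctrl library, which held for 27.3% of genes in soma and 21.3% in neurites. Replicates came from distinct litters, with Ctrl and KCl cultures from the same litter, and the labels do not say which numbers share one. The p-values measure the spread between the 2 libraries of a group, estimated over the 8 libraries of the genotype together. Soma and neurite libraries count as independent in this fit, although they came from the same cultures.

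**Figure D2:**
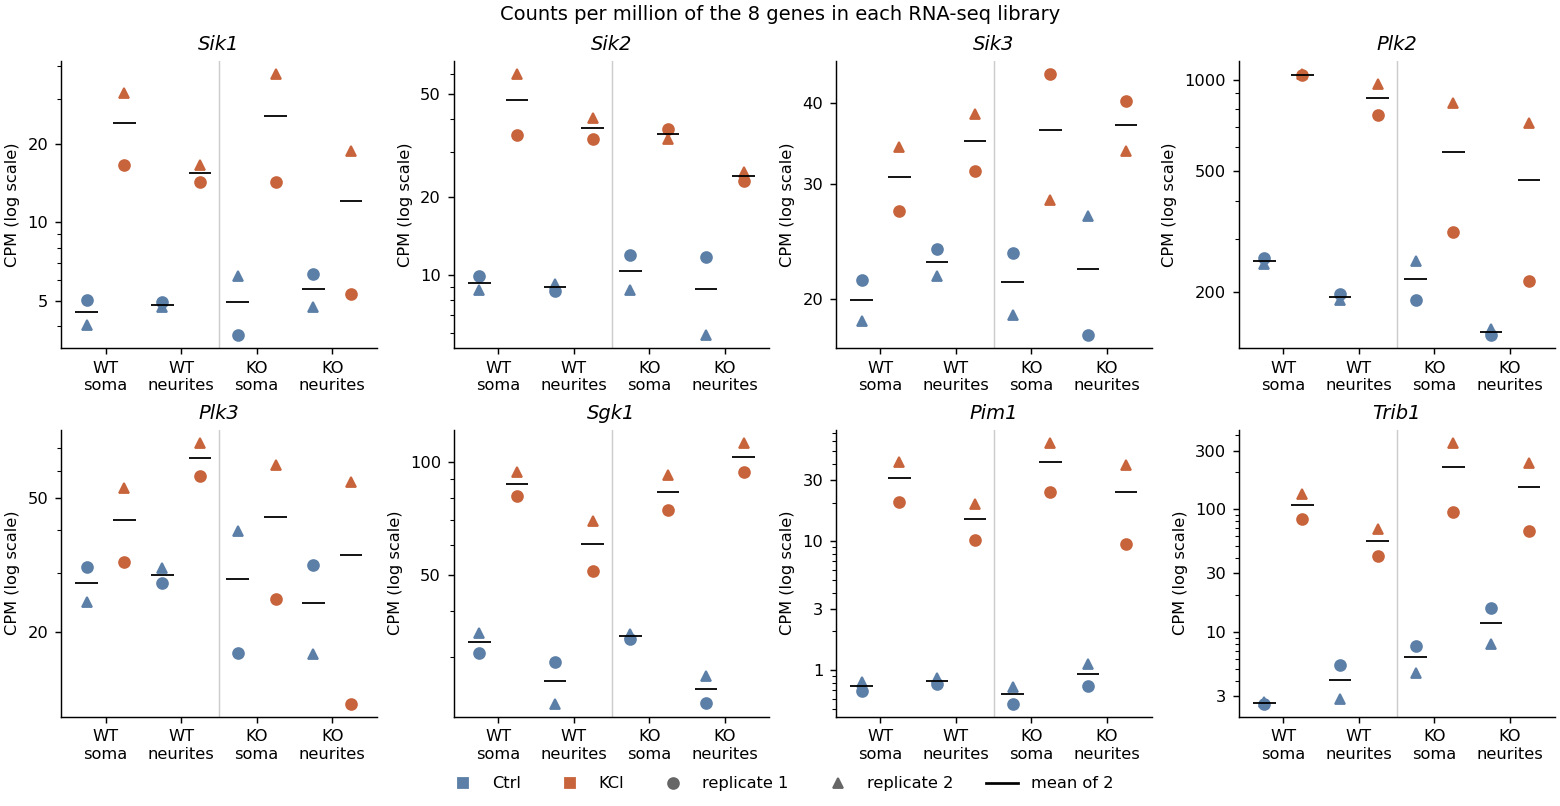
CPM (log y axes, a range of its own per gene) of the 8 genes in each of the 16 libraries, with Ctrl in blue, KCl in orange, circles for replicate 1, triangles for replicate 2 and a bar at the mean of 2. In WT all KCl points lie above all Ctrl points for each gene, and in KO the circles of Sik1, Plk2, Plk3, Pim1 and Trib1 lie well below the triangles with KCl.

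Pim1 and Trib1 moved most. Pim1 was at 0.691 and 0.810 CPM in WT Ctrl soma and at 20.4 and 41.3 CPM with KCl. This was a 41.4-fold rise (log2 5.37 ± 0.42 SE, edgeR adjusted p = 1.65e-05). Trib1 went from 2.61 and 2.69 CPM to 83.0 and 132.7 CPM, a 40.9-fold rise (log2 5.35 ± 0.35 SE, edgeR adjusted p = 3.94e-06). Both genes had low levels in silenced neurons, and the lower KCl library of each was far above both Ctrl libraries.

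Among the salt-inducible kinases Sik1 and Sik2 rose and Sik3 stayed under the 2-fold mark. Sik1 was at 5.04 and 4.02 CPM in Ctrl and 16.7 and 31.6 CPM with KCl (log2 2.42 ± 0.27 SE, edgeR adjusted p = 0.000243). Sik2 was at 9.95 and 8.74 CPM in Ctrl and 34.8 and 59.9 CPM with KCl (log2 2.35 ± 0.23 SE, edgeR adjusted p = 9.68e-05). Sik3 was at 21.4 and 18.5 CPM in Ctrl and 27.3 and 34.2 CPM with KCl, a log2 difference of 0.63 ± 0.15 SE with an edgeR adjusted p of 0.0218. Its groups did not overlap, and its size was 1.55-fold.

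Of the polo-like kinases Plk2 passed in soma and Plk3 did not. Plk2 was at 259.9 and 248.2 CPM in Ctrl and 1033 and 1041 CPM with KCl (log2 2.03 ± 0.12 SE, edgeR adjusted p = 1.87e-06), with replicates almost on top of each other in both groups. Plk3 was at 31.2 and 24.6 CPM in Ctrl and 32.3 and 53.5 CPM with KCl, a log2 difference of 0.62 ± 0.22 SE that did not pass (edgeR adjusted p = 0.0954). The lower KCl library of Plk3 sat just above the higher Ctrl library.

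Sgk1 was at 30.9 and 34.9 CPM in Ctrl soma and 81.2 and 94.2 CPM with KCl. It rose 2.67-fold (log2 1.42 ± 0.17 SE, edgeR adjusted p = 0.000317). In a fit that pools WT and KO libraries for the spread, Sik1 (edgeR adjusted p = 0.0631) and Plk2 (edgeR adjusted p = 0.0728) no longer passed, and 4 of the 8 did. Over all genes 341 passed in either direction in that fit, against 1611 in the main fit. Beside this, astrocyte markers summed to 1198 to 1214 CPM in Ctrl soma and 1620 to 1633 CPM with KCl, and microglial markers to 11 to 12.7 and 15.7 to 19.4 CPM. Markers of fibroblasts and vessels summed to 13.2 to 18 CPM in Ctrl soma and 23 to 30.8 CPM with KCl (list median log2 0.55), and neuronal markers to 3436 to 3638 and 3916 to 3929 CPM. None of these 4 pairs of ranges overlapped, Sox9 of the astrocyte list was the only gene of these lists to pass the KCl test, and the part of these cells in the result was not tested.

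In WT neurites 7 of the 8 rose by the same rule, against 3.33% of 22059 genes. Plk3 joined the 6 that rose in soma, and Sik3 again stayed under 2-fold (log2 0.70 ± 0.16 SE, edgeR adjusted p = 0.0209). The median log2 fold change was 1.96, against 0.0127 over all genes, with the same limit from how the 8 were chosen. Astrocyte markers summed to 2027 to 3261 CPM in Ctrl neurites and 2313 to 2764 CPM with KCl, and oligodendrocyte lineage markers to 120 to 124 and 77.4 to 85.2 CPM, and their part in the result was not tested.

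Pim1 was at 0.775 and 0.863 CPM in Ctrl neurites and 10.2 and 19.6 CPM with KCl, a 19.4-fold rise (log2 4.28 ± 0.44 SE, edgeR adjusted p = 0.000207). Trib1 was at 5.39 and 2.83 CPM in Ctrl and 41.9 and 69.1 CPM with KCl, a 14.1-fold rise (log2 3.82 ± 0.34 SE, edgeR adjusted p = 7.28e-05). The KCl levels of both in neurites were below both KCl soma libraries, and Trib1 differed more between its Ctrl replicates here than in soma. Sik1 was at 4.92 and 4.70 CPM in Ctrl and 14.3 and 16.7 CPM with KCl (log2 1.77 ± 0.28 SE, edgeR adjusted p = 0.00324). Sik2 was at 8.70 and 9.26 CPM in Ctrl and 33.8 and 40.7 CPM with KCl (log2 2.14 ± 0.24 SE, edgeR adjusted p = 0.000394). For Sik1 and Sik2 the replicates lay close together in neurites and farther apart in soma with KCl.

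Sik3 was at 23.9 and 21.7 CPM in Ctrl neurites and 31.4 and 38.4 CPM with KCl. Plk2 was at 197.0 and 189.0 CPM in Ctrl and 765 and 967 CPM with KCl, a 4.76-fold rise (log2 2.25 ± 0.12 SE, edgeR adjusted p = 2.21e-06). Plk3 was at 28.0 and 31.0 CPM in Ctrl and 58.0 and 72.7 CPM with KCl (log2 1.23 ± 0.23 SE, edgeR adjusted p = 0.00862). The Plk3 groups were well apart in neurites, unlike in soma. Sgk1 was at 29.2 and 22.5 CPM in Ctrl and 51.2 and 69.7 CPM with KCl (log2 1.31 ± 0.17 SE, edgeR adjusted p = 0.000972). The Plk3 call was lost without Ctrl neurite replicate 1 or KCl neurite replicate 2. With both genotypes in the fit 4 of the 8 passed, without Sik1, Plk2 and Plk3, and the count over all genes fell too.

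All 8 genes were higher in replicate 2 than in replicate 1 of the KCl-treated WT neurons, in soma and in neurites. The ratio of replicate 2 to replicate 1 in soma ran from 1.01 (Plk2) to 2.03 (Pim1). In neurites it ran from 1.17 (Sik1) to 1.93 (Pim1). The early gene Fos, shown as a gauge of the stimulus, had a ratio of 0.855 in soma and 1.14 in neurites.

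**Figure D3:**
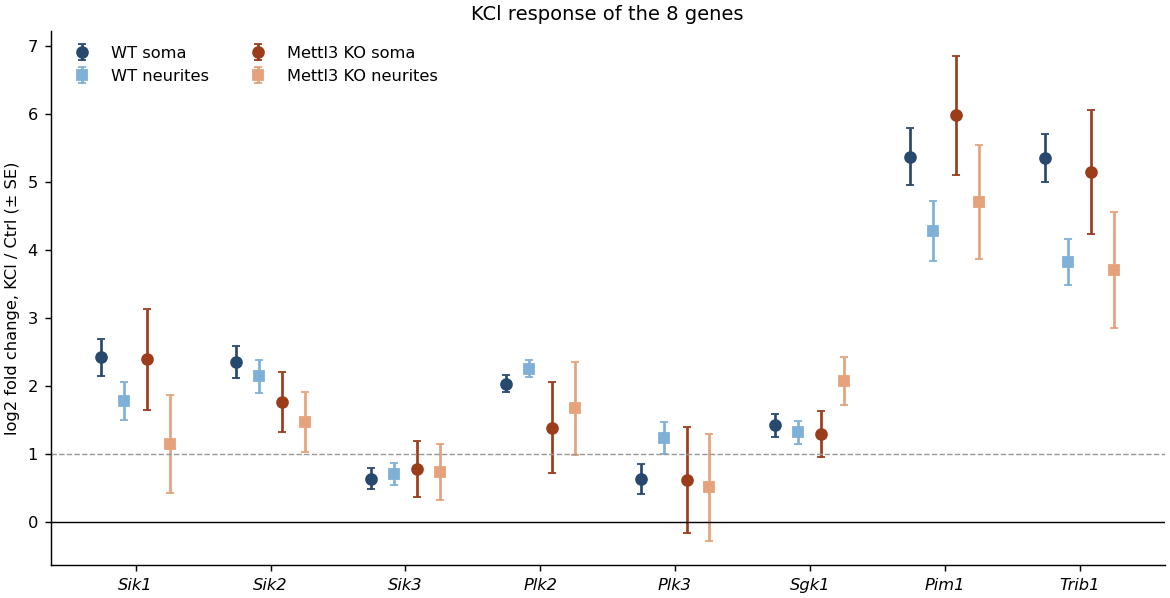
Log2 fold change of KCl against Ctrl (points) with its standard error (bars) for the 8 genes in WT soma, WT neurites, Mettl3 KO soma and Mettl3 KO neurites; the dashed line marks 2-fold. Pim1 and Trib1 have the largest values in all 4 settings (3.70 to 5.98), and the KO bars are longer than the WT bars for every gene.

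In Mettl3 KO neurons the same question met a much larger spread between replicates. None of the 8 genes passed at the adjusted p in soma or neurites, and of all genes none passed in either (0%). At an unadjusted p of at most 0.05 and 2-fold, 5 of the 8 were higher in soma (3.61% of 23679 genes) and 5 in neurites (4.02% of 22199 genes). DESeq2 called 3 in soma (Sik2, Pim1 and Trib1, where 0.925% of genes were called higher) and 3 in neurites (Sgk1, Pim1 and Trib1, where 1.01% were). All 8 fitted changes were positive in both compartments, with a median log2 value of 1.57 in each. The common biological coefficient of variation was 0.505 in KO soma comparisons and 0.151 in WT.

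Pim1 was at 0.550 and 0.746 CPM in KO Ctrl soma and 24.1 and 58.3 CPM with KCl (log2 5.98 ± 0.88 SE, edgeR adjusted p = 0.290). In KO neurites it was at 0.761 and 1.11 CPM in Ctrl and 9.56 and 39.2 CPM with KCl (log2 4.71 ± 0.84 SE, edgeR adjusted p = 0.381). Its groups were far apart in both compartments even so. Trib1 was at 7.74 and 4.68 CPM in Ctrl soma and 94.8 and 347 CPM with KCl (log2 5.15 ± 0.91 SE, edgeR adjusted p = 0.300). In neurites Trib1 was at 15.7 and 8.0 CPM in Ctrl and 67.0 and 235.8 CPM with KCl (log2 3.70 ± 0.86 SE, edgeR adjusted p = 0.513). Without the KCl-treated insert 1 that stood apart, an alternative chosen with those libraries known, Pim1 passed in soma (log2 6.49, edgeR adjusted p = 0.0312) and in neurites (log2 5.49, edgeR adjusted p = 0.0467), and it was the only one of the 8 to do so.

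Sgk1 had the smallest standard errors of the 8 in KO. It was at 33.6 and 34.7 CPM in Ctrl soma and 74.3 and 92.3 CPM with KCl (log2 1.29 ± 0.34 SE), and at 22.7 and 26.8 CPM in Ctrl neurites and 94.2 and 112.8 CPM with KCl (log2 2.07 ± 0.35 SE, edgeR adjusted p = 0.381). Sik2 was at 12 and 8.78 CPM in Ctrl soma and 36.7 and 33.7 CPM with KCl (log2 1.76 ± 0.45 SE), and at 11.8 and 5.88 CPM in Ctrl neurites and 23.2 and 25 CPM with KCl (log2 1.47 ± 0.44 SE). For both genes the KCl libraries lay close to each other and above both Ctrl libraries.

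Other members followed the insert. Sik1, Plk2, Plk3, Pim1 and Trib1 were lower in the replicate 1 that stood apart than in replicate 2. Replicate 2 exceeded replicate 1 by 2.41 (Pim1) to 3.66 (Trib1) times in KCl soma and 3.29 (Plk2) to 4.51 (Plk3) times in KCl neurites, and Fos by 3.22 and 4.34 times. Against the WT KCl libraries of the same compartment, Sik1, Plk2 and Plk3 in that replicate 1 lay below both. Pim1 lay between them in soma and below both in neurites, and Trib1 lay between them in soma and in neurites. Sik2, Sik3 and Sgk1 had ratios of 0.641 (Sik3) to 1.24 (Sgk1) in soma and 0.839 to 1.20 in neurites. The markers of glia given above are high and the neuronal markers low in this same replicate 1. Their part in these values was not tested.

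Sik1 was at 3.68 and 6.19 CPM in KO Ctrl soma and 14.4 and 37.3 CPM with KCl (log2 2.39 ± 0.74 SE). In KO neurites it was at 6.34 and 4.74 CPM in Ctrl and 5.31 and 18.8 CPM with KCl (log2 1.14 ± 0.72 SE), so its groups overlapped there. Without KCl neurite replicate 2 that value was -0.21. Plk2 was at 189 and 254 CPM in Ctrl soma and 315 and 840 CPM with KCl (log2 1.38 ± 0.67 SE), and at 145 and 152 CPM in Ctrl neurites and 218 and 718 CPM with KCl (log2 1.67 ± 0.68 SE). Plk3 overlapped in both compartments, with 17.4 and 40.0 CPM in Ctrl soma and 25.1 and 62.5 CPM with KCl (log2 0.61 ± 0.78 SE). In neurites Plk3 was at 31.5 and 17.3 CPM in Ctrl and 12.3 and 55.5 CPM with KCl (log2 0.50 ± 0.78 SE). Sik3 was at 23.5 and 18.9 CPM in Ctrl soma and 44.2 and 28.3 CPM with KCl (log2 0.78 ± 0.42 SE), and at 17.6 and 26.8 CPM in Ctrl neurites and 40.2 and 33.8 CPM with KCl (log2 0.73 ± 0.41 SE). KCl libraries lay above both Ctrl libraries for 7 genes in KO soma (19% of all genes) and 6 in KO neurites (16.1%).

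The next question was whether these mRNAs lie in neurites or soma. In WT Ctrl neurons none of the 8 passed the 1.5-fold and adjusted p rule, where 13.6% of 23200 genes did in either direction. None passed 1.5-fold at an unadjusted p of at most 0.05 either (20.2% of genes did), and DESeq2 called none (14% of genes). Log2 differences of neurites against soma ran from -0.46 (Plk2) to 0.59 (Trib1), and Plk2 had the smallest adjusted p with a difference under 1.5-fold (edgeR adjusted p = 0.0203). Astrocyte markers summed to 1198 to 1214 CPM in Ctrl soma and 2027 to 3261 CPM in Ctrl neurites. The sums of the other classes were higher in Ctrl neurites too, without overlap. Neuronal markers were at 3436 to 3638 and 4644 to 4997 CPM, and microglial markers at 11 to 12.7 and 18.8 to 21 CPM. Oligodendrocyte lineage markers were at 60.9 to 69.5 and 120 to 124 CPM, and markers of fibroblasts and vessels at 13.2 to 18 and 33.6 to 81.9 CPM. The part of these cells in the differences was not tested.

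With KCl none of the 8 passed in WT either, where 9.6% of 23028 genes did. With the replicate number as a block, which would pair the soma and neurite library of an insert, Pim1 passed (log2 -1.03, edgeR adjusted p = 0.0136). By 1.5-fold and the unadjusted p alone, 1 gene was higher in neurites (9.89% of genes) and 3 were lower (5.92%), and DESeq2 called 2 at its adjusted p (10.5% of genes). The KCl values given above put Pim1 at a log2 difference of -1.05 ± 0.34 SE (edgeR adjusted p = 0.0662), Trib1 at -0.95 ± 0.29 SE (edgeR adjusted p = 0.0524) and Plk3 at 0.61 ± 0.22 SE (edgeR adjusted p = 0.0988). Sik1, with -0.64 ± 0.26 SE, was the third that was lower at the unadjusted p. The count of members passing at the adjusted p changed when single libraries were left out, and so did the count over all genes. Astrocyte markers summed to 1620 to 1633 CPM in KCl soma and 2313 to 2764 CPM in KCl neurites. Neuronal markers summed to 3916 to 3929 and 4797 to 4916 CPM, and microglial markers to 15.7 to 19.4 and 20.4 to 30.1 CPM. Oligodendrocyte lineage markers were at 57.9 to 62.4 and 77.4 to 85.2 CPM, while sums of fibroblasts and vessels overlapped. The part of these cells was not tested.

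**Figure D4:**
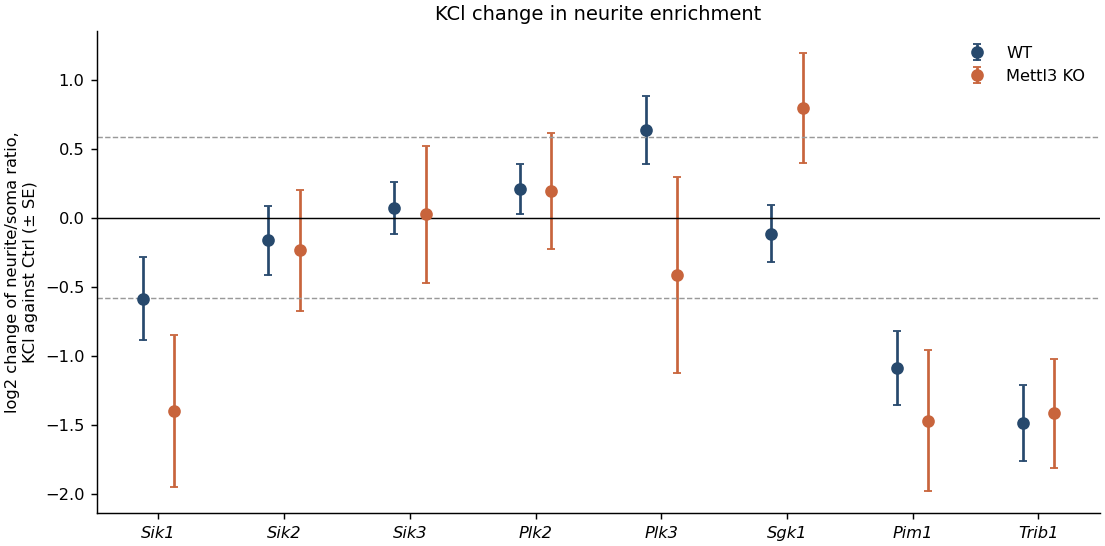
Log2 change of the neurite-to-soma ratio with KCl against Ctrl (points, with standard errors as bars) for the 8 genes in WT and Mettl3 KO, with dashed lines at 1.5-fold in either direction. Pim1 and Trib1 lie below the lower line in both genotypes (-1.09 to -1.49), as does Sik1 (-0.59 in WT, just past the line, and -1.40 in KO), and Plk3 in WT (0.64) and Sgk1 in KO (0.80) lie above the upper line.

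Whether KCl changed that ratio was tested directly, with 1 term per insert and the study's rule, a change of 1.5-fold with p up to 0.05 before adjustment. Soma and neurite libraries of the same replicate number were taken as 1 insert, which the labels do not state. Across genes, replicate differences in soma and neurites correlated at -0.128 (Ctrl) and 0.0412 (KCl) in WT. In KO these values were 0.0757 and 0.896. Without the insert term Trib1 alone of the 8 passed in WT, and none passed in KO. In WT 3 of the 8 passed that rule, where 3.36% of 23200 genes did, and no gene passed at an adjusted p (edgeR, 0%). Trib1 mRNA was relatively lower in neurites after KCl (log2 -1.49 ± 0.27 SE, edgeR unadjusted p = 0.00044, adjusted p = 0.999). Its neurite-to-soma log2 ratio was 1.04 and 0.07 in the Ctrl inserts and -0.98 and -0.94 in the KCl inserts. Pim1 changed the same way (log2 -1.09 ± 0.27 SE, edgeR unadjusted p = 0.00308, adjusted p = 0.999), from ratios of 0.17 and 0.09 to -1.0 and -1.07. For either gene both KCl ratios lay below both Ctrl ratios, and the share of all genes with such an order was not computed. Both mRNAs rose in each compartment, so these values say that the rise was larger in soma.

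Plk3 went the other way in WT (log2 0.64 ± 0.24 SE, edgeR unadjusted p = 0.0286, adjusted p = 0.999), with ratios of -0.15 and 0.33 in Ctrl and 0.85 and 0.44 with KCl. Leaving out any of 4 of the 8 libraries took Plk3 under the rule (down to 0.26), and so did DESeq2 (0.57). Pim1 and Trib1 passed without each of the 8 libraries in turn, at -1.02 to -1.21 and -0.99 to -2.01. DESeq2's adjusted p called 15 genes in WT (0.0647%), Trib1 among them (-1.54, DESeq2 adjusted p = 0.00117), and Trib1 also passed at the adjusted p in edgeR with no filter on low counts (-1.49, adjusted p = 1.48e-05). Its adjusted p ran from 1.48e-05 to 1 over all alternatives. With no filter edgeR's p-values shrank elsewhere too, at nearly the same effect. For the Trib1 KCl response in WT soma the edgeR unadjusted p was 5.07e-189 with no filter and 1.31e-08 with it. The pass with no filter is therefore no separate evidence.

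In Mettl3 KO 3 of the 8 passed the same rule, all lower in neurites, where 2.23% of 23099 genes passed in either direction and 1.99% lower. These were Sik1 (log2 -1.40 ± 0.55 SE, edgeR unadjusted p = 0.0373), Pim1 (-1.47 ± 0.51 SE, edgeR unadjusted p = 0.023) and Trib1 (-1.42 ± 0.40 SE, edgeR unadjusted p = 0.00869), each with an adjusted p of 1, and edgeR called no gene at the adjusted p while DESeq2 called 2 (0.00866%). Trib1 ratios were 1.02 and 0.77 in the Ctrl inserts and -0.50 and -0.56 in the KCl inserts, and Pim1 ratios were 0.47 and 0.58 against -1.34 and -0.57. Without either library of the KCl-treated insert 1, none of the 3 passed, at -1.14 for Sik1 (edgeR unadjusted p = 0.191), -1.06 for Pim1 (0.182) and -1.41 for Trib1 (0.0693) in the fit without its soma library. The size of the Trib1 change hardly moved with any single library left out (-1.36 to -1.49), and its p passed in 4 of these 8 fits, missing also without either library of KCl replicate 2. Sik1 passed in 2 of the 8, those without a library of Ctrl replicate 2, and ran from -0.88 to -1.93. Pim1 passed in 6, all but those without a library of KCl replicate 1, and ran from -1.06 to -1.92. How many members passed changed with the library left out, and so did the number of genes passing over all. Trib1 passed at the adjusted p without Ctrl soma replicate 1 or Ctrl neurite replicate 1. Each of these fits leaves 1 library in a group, and the share of all genes passing in it is not given. This pass therefore carries little weight.

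Comparing genotypes, none of the 8 KCl responses passed the test of KO against WT at the adjusted p in soma or neurites, and edgeR called no gene in either (0%). At the unadjusted p it called 494 genes in soma (2.05%) and 917 in neurites (4.11%), while DESeq2's adjusted p called 2 (0.00831%) and 0. Differences over the 8 (log2, KO response minus WT response) ran from -0.67 (Plk2) to 0.61 (Pim1) in soma, with standard errors of 0.34 to 0.93. In neurites they ran from -0.62 (Plk3) to 0.88 (Sgk1). Sgk1 alone passed at the unadjusted p (0.88 ± 0.33 SE, edgeR unadjusted p = 0.0221, adjusted p = 0.866), from responses of 1.31 in WT and 2.07 in KO neurites fitted by genotype. For Pim1 and Trib1 the standard errors were 0.89 to 0.93, so a difference of that size was not detectable.

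The levels themselves were compared in soma. None of the 8 passed between Mettl3 KO and WT in Ctrl soma (0.185% of 23750 genes passed) or KCl soma (0.212% of 24038), none passed 1.5-fold at an unadjusted p (8.57% and 14.2% of genes did), and DESeq2 called none of them (1.74% and 4.27%). Trib1 had the highest value in both, 1.27 ± 0.67 SE in Ctrl (edgeR adjusted p = 0.619) and 1.03 ± 0.66 SE with KCl (edgeR adjusted p = 0.491). The KO Ctrl libraries of Trib1 were both above the WT ones, and the share of all genes with such an order is not given here. The KCl value of Trib1 turned to -0.18 without KO KCl soma replicate 2. Plk2 had the lowest value with KCl, at -0.85 ± 0.50 SE. In Ctrl soma Fos was at 36.9 and 61.7 CPM in KO and 13.3 and 12.8 CPM in WT. Egr1 was at 86.3 and 79.5 against 44.6 and 37.0 CPM. Astrocyte markers summed to 2054 to 2467 CPM in KO against 1198 to 1214 CPM in WT. Oligodendrocyte lineage markers were at 95.1 to 105.6 against 60.9 to 69.5 CPM, and the sums of the other classes overlapped. The part of these differences between untreated cultures in the genotype comparisons was not tested.

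Levels between genes were compared per length, as FPKM (the CPM divided by the exon length in kilobases). In WT Ctrl soma Plk2 led with 56.6 ± 1.84 FPKM (SD, n = 2). Plk3 followed with 11 ± 1.83 FPKM, Sgk1 with 6.71 ± 0.58 FPKM and Sik3 with 2.14 ± 0.22 FPKM. Sik2 (0.979 ± 0.090 FPKM) and Sik1 (0.883 ± 0.14 FPKM) overlapped, and Trib1 (0.424 ± 0.0083 FPKM) and Pim1 (0.223 ± 0.025 FPKM) came last. The level of the first was 253.3 times that of the last, or 338.4 times on the CPM scale that ignores length.

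With KCl the order was another. Plk2 still led in soma with 230.9 ± 1.35 FPKM, and Sgk1 (17.9 ± 1.88 FPKM), Trib1 (17.3 ± 5.63 FPKM) and Plk3 (16.9 ± 5.93 FPKM) overlapped behind it. Pim1 (9.17 ± 4.41 FPKM), Sik2 (4.96 ± 1.86 FPKM), Sik1 (4.71 ± 2.05 FPKM) and Sik3 (3.30 ± 0.52 FPKM) overlapped in turn, each with the next. In WT KCl neurites Plk2 was at 192.9 ± 31.8 FPKM and Plk3 at 25.8 ± 4.11 FPKM, and Plk3 there was clear of Sgk1 (12.3 ± 2.66 FPKM), which overlapped with Trib1 (8.88 ± 3.07 FPKM). Sik1 was last in KCl neurites with 3.02 ± 0.33 FPKM, clear of Sik3 above it.

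Other genes of the same pathways came from lists, chosen with earlier results of these data known, and were held to the same KCl rule. Of 9 paralogs (Plk1, Plk4, Plk5, Sgk2, Sgk3, Pim2, Pim3, Trib2 and Trib3), Pim3 alone passed in WT soma, from a mean of 34.3 to 73.9 CPM (log2 1.11 ± 0.17 SE, edgeR adjusted p = 0.00175), and none passed in neurites. Of 17 genes of the SIK axis (the LKB1 complex, CRTC coactivators, class IIa histone deacetylases and CREB family), Crem alone passed. Crem, which encodes activator and repressor forms of the CREB family, rose from 5.98 ± 0.53 to 21 ± 1.03 CPM (SD, n = 2) in soma (log2 1.81, edgeR adjusted p = 8.52e-05) and by 1.31 in neurites (edgeR adjusted p = 0.00117). The median log2 value of that list was -0.17 in soma, against 0.00866 for all genes.

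Of 14 genes of the SGK axis 1 passed in soma and none in neurites. It was Foxo3, a forkhead factor that SGK kinases phosphorylate, which rose from 41.6 ± 2.07 to 92.1 ± 35.6 CPM (log2 1.15 ± 0.22 SE, edgeR adjusted p = 0.00606). Of 6 genes of the TRIB1 axis Cebpb, a C/EBP factor, passed in soma (log2 1.57 ± 0.29 SE, edgeR adjusted p = 0.00537) and in neurites (log2 1.57 ± 0.31 SE, edgeR adjusted p = 0.0105), at low levels of 0.649 ± 0.042 CPM in Ctrl soma and 1.93 ± 0.012 CPM with KCl. None of 11 tested AMPK-related kinases of 12 (Melk was under the filter), none of 5 PLK2 substrates and none of 7 genes of the PIM axis passed in either WT compartment. In soma the medians of these 3 lists were -0.21, 0.0064 and 0.35. These counts stand beside the 3.74% and 3.33% of all genes that rose in WT soma and neurites.

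Deposited DART-seq scores add the C-to-U fraction over the called sites of an RNA and are the authors' pooled values over replicates and treatments, so they have no error and no test. Scores in WT were 0.220 for Sik1, 0.179 for Sik3, 0.145 for Sgk1, 0.140 for Trib1, 0.0775 for Pim1, 0.0759 for Plk3 and 0.0456 for Plk2. The median over the 5643 RNAs was 0.103, so 4 of the 7 lay above it and 3 below. WT scores were 2.25 (Plk2) to 6.74 (Trib1) times the KO scores, with a median over RNAs of 3.10. Pim1 was second with 5.75.

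Between compartments Sgk1 differed most, with a score of 0.0749 in soma and 0.224 in neurites. That ratio of 3.0 was higher than that of 90.9% of the 5423 RNAs with both scores, whose median was 1.33. Trib1 had 0.0926 in soma and 0.194 in neurites (ratio 2.09, above 79.7% of RNAs). Plk3 had a ratio of 1.49, Pim1 of 1.09, Plk2 of 0.970, Sik1 of 0.818 and Sik3 of 0.675. The Sgk1 and Trib1 sites in the 3′UTR are those printed above.

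**Figure D5:**
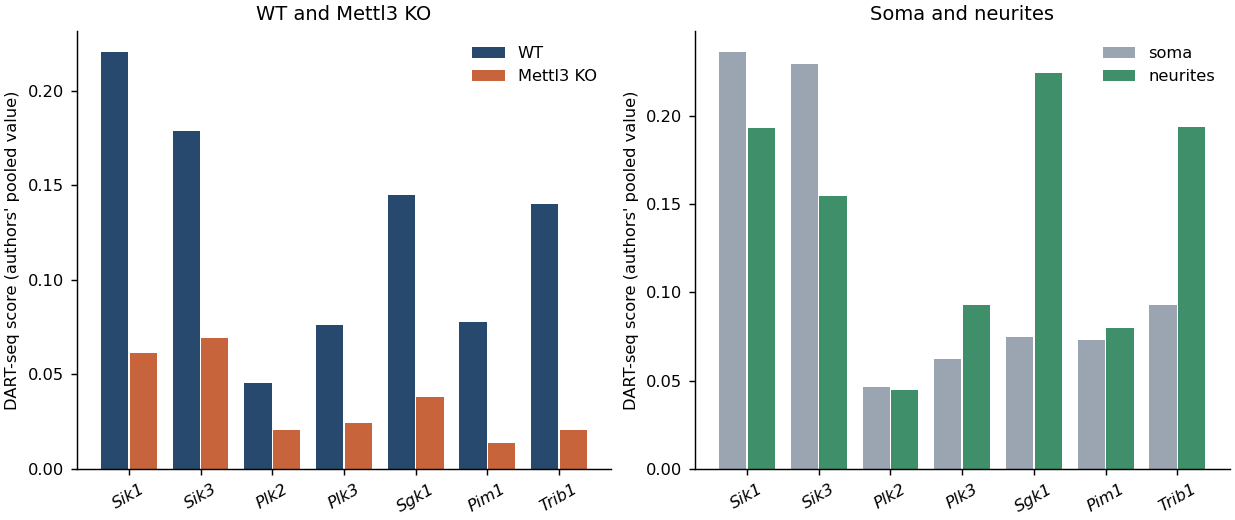
DART-seq scores (sum of the C-to-U fraction over called sites, the authors' pooled values with no error) of the 7 RNAs with sites, for WT and Mettl3 KO on the left and for soma and neurites on the right. Sgk1 (0.0749 and 0.224) and Trib1 (0.0926 and 0.194) have the largest neurite excess, and Sik1 and Sik3 are higher in soma.

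The 3′UTRs of the 8 mRNAs (longest per gene, GENCODE M21) were 335 bases in Plk3, 623 in Plk2, 1079 in Sgk1, 1368 in Pim1, 2036 in Sik1, 2142 in Sik3, 2401 in Trib1 and 2527 in Sik2, against a median of 920 over 21685 genes. The pentamer ATTTA, the core of AU-rich elements that shorten the life of many early mRNAs, occurred 4 times in Plk3, or 11.9 times per kilobase, which is more than in 99.4% of genes. Pim1 had 3.65 per kilobase, Plk2 3.21, Sgk1 2.78, Sik2 2.37 and Sik1 1.47, against a median of 1.15. Sik3 and Trib1 had none. The longer form TATTTAT was in 4 of the 8 (Pim1 4 times, Plk3 3 times, Plk2 2 times and Sgk1 1 time) and in 26.7% of genes. Whether these strings relate to the KCl responses was not tested.

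Finally, the 2 genes most like each member were named by the root mean square difference of log2 CPM over the 8 group means, each gene centred on its own mean, among 15170 genes. The 8 means share libraries, so this is a description. Sik1 and Sik2 both had Arih1, a ubiquitin ligase, as the nearest gene (0.244 and 0.114), followed by the postsynaptic scaffold gene Homer1 for Sik1 (0.246) and Zbtb10 for Sik2 (0.157). For Sik3 Tsc22d1 is given (0.0963), and Plk2 was nearest to Tob1 (0.116) and Zswim6 (0.177). Plk3 was nearest to the gene model Gm18939 (0.145) and to Stmn4 (0.219), and Sgk1 to the gene model Gm12919 (0.156) and Kpna2 (0.172). Pim1 was nearest to Klf4 (0.372) and Gadd45g (0.384) and Trib1 to the early gene Egr1 (0.504) and to Maff (0.547). The last 2 members had the most distant neighbours of the 8.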

How the data were processed

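Bulk RNA-seq libraries (16, NEBNext low-input kit, 50 ng RNA) were analysed from the deposited table of raw counts per Ensembl gene. Per the study's methods and processing notes, the authors trimmed reads with Flexbar, aligned them to mm10 with STAR 2.7.7a and counted pairs with featureCounts 2.0.1 against Ensembl annotation, including multi-mapped reads and without strand, which can shift counts of genes with close copies or overlaps. The authors' gene length in that table gave FPKM. DART-seq files hold the authors' pooled score per RNA and the C-to-U fraction per site, called by the authors with Bullseye, pooled over libraries, so they have no replicate error. Deposited log2 fold changes and p-values of the authors' own comparisons were not used, and 0 columns were unmapped.

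Counts were scaled by TMM and tested with edgeR 4.0.16 in R 4.3.3 (two-sided quasi-likelihood test, p-values adjusted over all genes by Benjamini-Hochberg), after a filter of a mean of at least 10 counts and without 37 mitochondrial genes. WT and Mettl3 KO libraries were fitted apart (8 each), and genotype comparisons used all 16. KCl calls needed 2-fold and others 1.5-fold, at an adjusted p of at most 0.05. The change in neurite enrichment had 1 term per insert, assumed from the replicate numbers, and used an unadjusted p. Alternatives were DESeq2 1.42.0, limma 3.58.1, other scaling, filters, replicate blocks and libraries left out. The edgeR test was checked on simulated data. Members, gene lists (paralogs, SIK axis, AMPK-related kinases, PLK2 substrates, SGK axis, PIM axis, TRIB1 axis, cell type markers) and tests were chosen with earlier results of these data known. Named genes were the 8 members, Mettl3, list genes that passed the KCl test in WT soma (at most 4 per list), and for each member the 2 genes of at least 100 mean counts with the closest pattern, of which 1 is not reported here. Fos, Sox9 and the neighbours with shared exons fall outside this rule and were chosen after their values were seen. CPM and FPKM used TMM-scaled library sizes, and with 2 libraries a group the precision is that of their spread. Sequences came from the GRCm38 genome and RefSeq promoter tables. For a site the printed window is 10 bases to either side.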

Additional observations from a re-analysis of the deposited data

Results flagged for a closer look

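The KCl response of 3 genes differed between WT neurites and soma by a test of the difference itself at an unadjusted p, and none did at edgeR's adjusted p. By DESeq2 Trib1 in WT passed at the adjusted p (0.00117). In WT the log2 difference was 0.64 for Plk3 (edgeR unadjusted p = 0.0286), -1.09 for Pim1 (0.00308) and -1.49 for Trib1 (0.00044), with an adjusted p of 0.999 for each, where 3.36% of genes passed the same rule. In Mettl3 KO it was -1.40 for Sik1 (edgeR unadjusted p = 0.0373), -1.47 for Pim1 (0.023) and -1.42 for Trib1 (0.00869), with an adjusted p of 1 for each, where 2.23% of genes passed. Without either library of the KCl-treated Mettl3 KO insert 1 none of these KO values passed, while Trib1 kept its size (-1.41). Over all 8 fits with a single library left out Sik1 passed in 2, Pim1 in 6 and Trib1 in 4.

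The KCl response of Sgk1 in neurites differed between KO and WT by 0.88 on the log2 scale (edgeR unadjusted p = 0.0221, adjusted p = 0.866), with all 4 KCl libraries above all 4 Ctrl libraries. Groups of 2 libraries are too small for a test of outlying samples.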

How the results depend on the processing

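The 6 calls in WT soma and 7 in WT neurites held under DESeq2, RLE scaling, no filter, a filter of 100 counts, the 4 libraries of the comparison alone and a replicate block, as counts, and with all 16 libraries in the fit 4 passed in each. In KO the 0 calls became 3 in soma and 3 in neurites under DESeq2, 3 and 3 with no filter, 4 and 3 with all 16 libraries, and 1 and 1 without the KCl-treated insert 1. The cause was not tested. For neurites against soma in WT KCl the 0 calls became 2 under DESeq2, 1 under RLE scaling, 4 with no filter, 1 with a filter of 100 counts and 1 with a replicate block, and 0 to 5 with single libraries left out. The 3 members whose neurite enrichment changed in WT became 1 with no replicate block (Trib1, -1.54) and 0 at edgeR's adjusted p. The 3 in KO became 0 with no replicate block, 0 with no block and no insert 1 (an alternative added after seeing the data), 0 at the adjusted p, and 0 to 5 with single libraries left out. With single libraries left out, 4 single-gene values turned sign, all without a KO KCl replicate 2: the KO KCl response of Plk3 ran from -0.18 to 1.32 in soma and from -1.13 to 1.22 in neurites, that of Sik1 in neurites from -0.21 to 1.79, and Trib1 in KO against WT KCl soma from -0.18 to 1.69. The span of levels was 253.3 per length and 338.4 on CPM, and 2 of the 21 sites reached 10% editing. Replicate numbers are not stated to mark a litter. Deviations of same-numbered WT libraries correlated across genes at -0.151 to 0.077, and KO ones at 0.0757 to 0.191, or 0.896 for KCl soma and neurites. With WT Ctrl neurite numbers crossed (added after seeing the data), 0 members and 3266 genes passed for neurites against soma and 3 members and 887 genes for the change. Counts over all genes moved by over 1.5 times as follows. With all 16 libraries WT soma went from 1611 to 341, WT neurites from 1109 to 263, neurites against soma in Ctrl from 3145 to 0 and in KCl from 2211 to 0, enrichment change from 779 to 291 in WT and from 515 to 1569 in KO, and the KO KCl response from 0 to 277 in soma and 223 in neurites. With no filter they were 1776 in WT neurites, 799 and 441 in KO, 1457 and 1946 for enrichment change, 236 for the genotype difference in soma, and 72 and 178 for KO against WT in Ctrl and KCl. The filter of 100 counts gave 1043 and 643 in WT and 425 and 193 for enrichment change. DESeq2 gave 270 and 253 in KO, 498 and 1206 for enrichment change, and 413 and 1027 against 44 and 51 for KO against WT. With a replicate block KO against WT in KCl gave 608 and KO soma 4, no block gave 61 for the KO change, and limma gave 18 for KO against WT in Ctrl. With single libraries left out these counts ran from 812 to 1522 in WT soma, 576 to 1186 in WT neurites, 1068 to 3694 and 752 to 2395 for neurites against soma, 518 to 1666 and 92 to 4064 for enrichment change, 0 to 3 in KO neurites, 0 to 1445 and 0 to 3 for the genotype difference, and 4 to 2640 and 8 to 172 for KO against WT. Without insert 1 they were 19 and 12 in KO and 419 for KO against WT in Ctrl. Beside Pim1 in neurites against soma with KCl (-1.03, edgeR adjusted p = 0.0136), the block changed no call of a member.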
